A study of Mus musculus with 9 samples.

Results

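Common dendritic cell progenitors (CDPs) that carried the Zbtb46-GFP reporter signal, labelled Zbtb46+ CDPs, were compared with the average of the group means of Zbtb46- CDPs and Pre-CD8 DCs. They made up 3 of the 9 arrays of the study, and the other populations had 3 arrays each. All 9 arrays held RNA of bone marrow cells from pelvis, tibia and femur of mice heterozygous for the Zbtb46-GFP reporter, sorted by flow cytometry, with no treatment named. The RNA was labelled with a kit made for picogram to nanogram inputs and hybridised to Affymetrix arrays. The labels give no ages, no sort gates and no statement that replicates came from separate mice, so each p-value measures only the spread between these arrays. In a heterozygous reporter mouse the reporter can take the place of 1 copy of the marked gene in all 3 populations. A total of 19938 genes had a probe set with a single gene symbol.

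CDPs are bone marrow progenitors restricted to dendritic cell fates, and they pass through committed precursors, such as the Pre-CD8 DC, on the way to mature classical DCs. Zbtb46 is a transcription factor of classical DCs and their committed precursors, and a reporter in its locus is known to mark the progenitors that have begun to transcribe it. A gene that rises or falls stepwise along such a path has its intermediate population between its neighbours. The question here was which genes instead were highest or lowest in the Zbtb46+ CDPs. A gene whose Zbtb46+ mean lay above both other means was named a peak, one below both a dip, and any other gene monotone. The distance to the nearer of the other populations is given as the difference from the nearer population. Values are log2 signals (mean ± SD, n = 3 arrays), and a call is an adjusted p under 0.05 in limma's test, with the Benjamini-Hochberg correction run across the whole gene table.

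Zbtb46 and several lineage markers followed the sort labels by their means, and other markers did not. Zbtb46 was at 6.53 ± 0.34 in Zbtb46- CDPs, 7.24 ± 0.23 in Zbtb46+ CDPs and 7.51 ± 0.11 in Pre-CD8 DCs. The Zbtb46+ CDPs were called against the Zbtb46- CDPs (limma adjusted p = 0.0261, and 0.0891 without both CDP replicate 1 arrays). They were not called against the Pre-CD8 DCs (0.463). Signals of Zbtb46 on single arrays, 6.27 to 7.60, lay around the table median of 6.82. The CDP markers Flt3 (10.70 ± 0.25), Csf1r (10.31 ± 0.10), Cd34 (10.56 ± 0.15), Irf8 (12.97 ± 0.32) and Kit (10.68 ± 0.28) were all bright in the Zbtb46+ CDPs. Csf1r and Cd34 were lower in Pre-CD8 DCs, at 7.56 and 8.99. Flt3, Irf8 and Kit were at 11.29, 12.94 and 11.58 there, so they did not mark the CDPs. Id2 and Batf3, which drive the cDC1 lineage to which Pre-CD8 DCs belong, were intermediate at 10.42 ± 0.07 and 9.77 ± 0.24. The B cell genes Cd79a, Pax5 and Ebf1, the erythroid genes Gata1 and Klf1, and 3 of 4 mast cell and basophil markers (Cpa3, Ms4a2 and Fcer1a) were below the table median of 6.82 on every array, a range in which no signal was shown to lie above background. The remaining one, the basophil protease gene Mcpt8, was at 9.04, 8.73 and 8.85 in Zbtb46- CDPs, 6.67 to 7.0 in Zbtb46+ CDPs and 6.08 to 7.06 in Pre-CD8 DCs, so that it was monotone and was called lower against the average (limma adjusted p = 0.0226), and its part in other results was not tested. The primary granule gene Mpo was monotone, with means of 13.63 in Zbtb46- CDPs, 11.91 in Zbtb46+ CDPs and 6.08 in Pre-CD8 DCs. Elane, of the same granules, was at 11.65, 8.87 and 8.68 on the Zbtb46+ arrays, against means of 11.35 in Zbtb46- CDPs and 6.82 in Pre-CD8 DCs. Which cells carried these transcripts was not tested. Among cDC2 markers, Cd209a (7.35, 9.88 and 10.47 as means) and Irf4 rose stepwise, whereas Sirpa, Clec10a and Zeb2 fell stepwise. Replicate 1 of both CDP groups stood apart from the other 7 arrays. Xist, the RNA of the inactive X chromosome, was at 5.59 and 5.30 on these arrays and at 11.85 or above on the others, and the Y-linked genes Uty (7.68 and 6.80) and Kdm5d (7.65 and 6.94) were also highest there, against at most 4.54 and 4.99 on the others. The mean over 18 genes of secondary granules and mature neutrophils was 7.51 and 8.35 on these arrays, against 6.27 to 6.90 on the others. The secondary granule gene Ngp, for instance, was at 10.48 and 12.36 there against 5.39 to 8.54. None of these 18 genes was called by limma in the average comparison (1 higher and 1 lower at an unadjusted p under 0.05), and results are given with and without the replicate 1 arrays where it matters.

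Against the average of both other populations, 272 genes were higher (1.36% of all genes) and 1249 lower (6.26%) in the Zbtb46+ CDPs. Of those, 188 were peaks (0.943%) and 1093 were dips (5.48%), whereas 84 called higher (0.421%) and 156 called lower (0.782%) were monotone. The test without adjustment had p under 0.05 for 4659 genes. A call against the average can rest on 1 population alone. Ccnd2, chosen here after its values were seen, had means of 11.67 in both CDP groups and 9.94 in Pre-CD8 DCs, and still counted as a called peak. Against the Zbtb46- CDPs alone 3.85% of genes were called higher and 10.6% lower, and against the Pre-CD8 DCs alone 1.86% and 4.76%. The stricter reading therefore required a call in the same direction against each other population, and it was met by 34 peaks (0.171%) and 308 dips (1.54%). In all 34 peaks and all 308 dips the 3 Zbtb46+ arrays lay beyond the 6 others, a pattern seen upwards in 739 genes (3.71%) and downwards in 1172 genes (5.88%) of the whole table. The pattern is partly fixed by the call itself. RNA was measured in bulk, so that fewer cells with a transcript and less transcript per cell cannot be told apart.

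The differences were small. The difference from the nearer population had a median of 0.42 (0.25 to 1.45) on the log2 scale in the 34 peaks and -0.48 in the 308 dips, where it reached -2.40. A difference of at least 1 was found in 2 peaks and 2 dips, and of at least 0.5 in 14 peaks and 140 dips. Near the threshold, the peak A330008L17Rik was called with its larger adjusted p at 0.0498 (limma) and the histone gene H4c14 just missed the call. The median distance between the Zbtb46- CDPs and the Pre-CD8 DCs was 0.15 in peaks and 0.15 in dips, and the median over all genes was not taken. These 2 outer populations were called different in 6 of the 34 peaks and 52 of the 308 dips, shares near the 15.7% of all genes. Closeness of the outer populations was therefore not shown to be particular to peaks and dips.

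**Figure D1:**
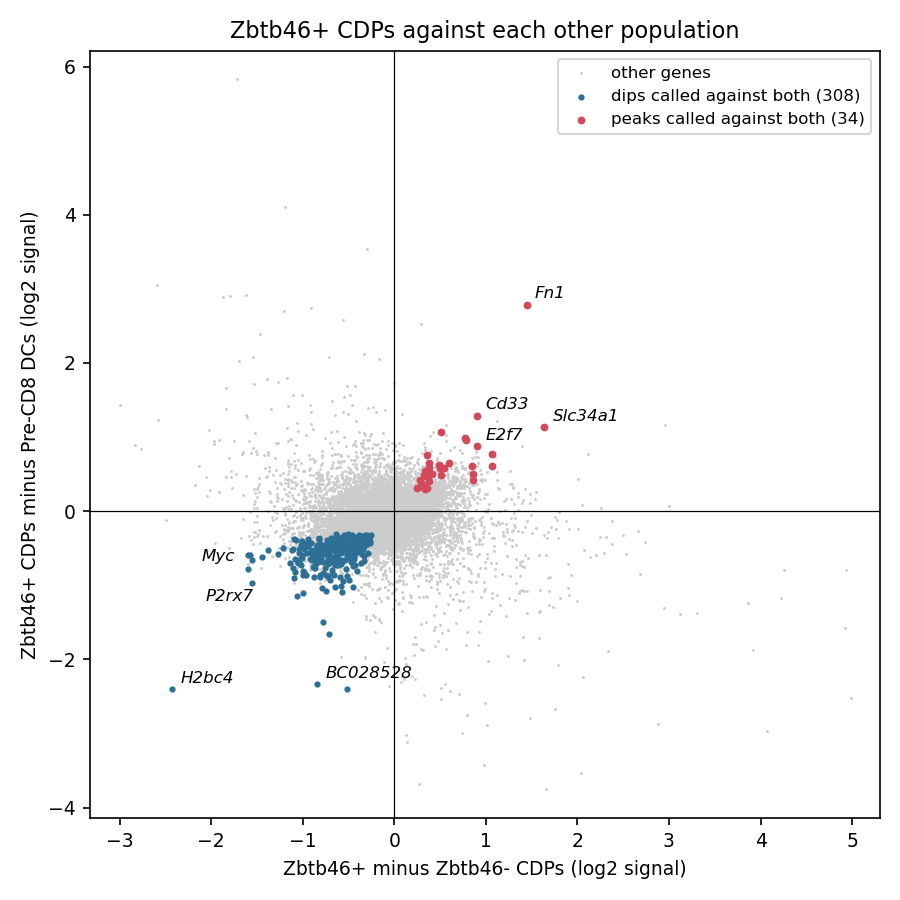
Difference of the Zbtb46+ CDPs from the Zbtb46- CDPs (horizontal) against their difference from the Pre-CD8 DCs (vertical), both in log2 signal, for 19938 genes. The 34 red points in the upper right field are peaks and the 308 blue points in the lower left field are dips called against both populations; most lie close to the origin, with Fn1 and H2bc4 farthest out along the diagonal.

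The counts depended on single arrays and on scaling. Without replicate 1 of both CDP groups, 678 peaks (3.4%) and 939 dips (4.71%) were called, and leaving out replicate 1 of the Zbtb46+ CDPs alone gave 414 and 762. Leaving out Zbtb46- replicate 3 gave 16 peaks and 150 dips, Zbtb46+ replicate 2 gave 30 and 155, and Pre-CD8 DC replicates 1, 2 and 3 gave 16 and 108, 23 and 137, and 22 and 110. With the replicate number as a block over the CDP groups, 178 peaks and 624 dips were called, and the average comparison had 1023 genes higher and 2186 lower. After quantile normalization there were 100 peaks (0.502%) and 192 dips (0.963%). The share of calls against the average that were higher was 17.9% as deposited and 39.2% after quantile normalization, where 553 genes were higher and 859 lower. Quantile normalization together with leaving out both replicate 1 arrays gave 470 peaks (2.36%) and 547 dips (2.74%).

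The excess of dips moved with signal strength. In the Zbtb46+ replicates 2 and 3 the spread of signals was narrower, with a 75th percentile of 8.30 and 8.34 against 8.44 to 8.62 on the other 7 arrays and a 10th percentile of 4.85 and 4.84 against 4.58 to 4.75. The median difference from the average was 0.087 in the dimmest of 10 equal groups of genes ordered by signal and -0.130 in the eighth, and over all genes it was 0.03. After quantile normalization the medians of the 10 groups lay between -0.026 and 0.023. Of the 308 dips 302 were brighter than the table median, as were 24 of the 34 peaks and 10585 of all 19938 genes. After quantile normalization the dips still lay mostly among the brighter genes, with 18 to 50 in each of the 5 brightest groups and 1 to 11 in each of the others. The part of this array difference in single dips was not tested.

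**Figure D2:**
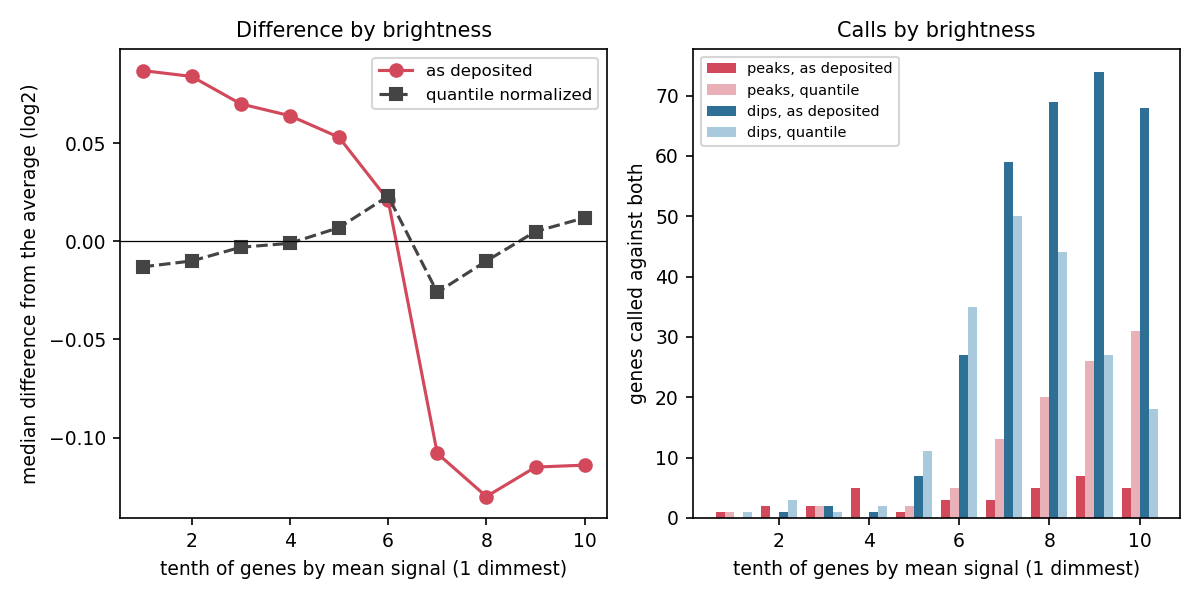
Left, median difference of the Zbtb46+ CDPs from the average of both other populations (log2) in each of 10 equal groups of genes ordered by mean signal, with the deposited values as circles and quantile-normalized values as squares. Right, number of peaks and dips called against both populations in each brightness group; as deposited, dips are most frequent in the 4 brightest groups, and after quantile normalization peaks become more frequent there.

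Most individual peaks kept their call under rescaling, without the replicate 1 arrays and with the block, but not in every omission of an array. Of the 34 peaks, 25 (73.5%) were also called after quantile normalization, 31 (91.2%) without both replicate 1 arrays, and all 34 with the block. Of the 308 dips, 164 (53.2%), 268 (87.0%) and 304 were. No peak became a dip by its means, or the reverse, under quantile normalization, without the replicate 1 arrays or in any of the 9 omissions of a single array. The call itself was kept in all 9 omissions for 10 peaks, Fn1, E2f7, Ccne1, Fkbp1b, Zdhhc15, E2f8, Esco2, Nin, Stxbp6 and Pik3r6, and for 71 dips. The text below leads with the 14 peaks and 14 dips that lay farthest from the nearer population, and these 14 peaks were all also called under quantile normalization, without the replicate 1 arrays and with the block.

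Fn1, which encodes the matrix protein fibronectin and is also abundant in monocytes, was the largest peak. Its signal was 9.65, 9.14 and 9.16 in Zbtb46- CDPs, 11.33, 10.54 and 10.43 in Zbtb46+ CDPs and 7.89, 8.26 and 7.78 in Pre-CD8 DCs. The Zbtb46+ arrays were the 3 highest, with replicate 1 above the other replicates of its group, and no groups overlapped. Fn1 was 2.72-fold above the Zbtb46- CDPs (log2 difference 1.45, SE 0.245, limma adjusted p = 0.00476) and 6.91-fold above the Pre-CD8 DCs (adjusted p = 0.00026). The other measured monocyte markers, F13a1, Cd14 and Ccr2, were monotone, with Zbtb46+ means of 10.08, 6.38 and 11.54 between 11.95 and 7.19, between 6.95 and 5.92, and between 10.85 and 12.19. Of 27 measured monocyte and macrophage genes, 5 were called higher and 3 lower against the average, with a median of 0.02, and Fn1 was the 1 member called against both populations.

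Cd33, a sialic acid-binding receptor of myeloid cells, was at 8.78, 8.46 and 8.37 in Zbtb46- CDPs, 9.89, 9.24 and 9.19 in Zbtb46+ CDPs and 8.18, 8.29 and 7.97 in Pre-CD8 DCs. The Zbtb46+ arrays again lay above the 6 others, by 0.90 (SE 0.192, limma adjusted p = 0.0136) and 1.29 (adjusted p = 0.00478) on the log2 scale, and the call was lost without Zbtb46- replicate 3 (largest adjusted p = 0.0586). Slc34a1, a sodium-dependent phosphate transporter best known from the kidney, was at 7.05, 7.44 and 7.49, at 9.58, 8.68 and 8.64, and at 7.91, 7.90 and 7.67 in the same order of groups. It was 2.20-fold above the nearer population, the Pre-CD8 DCs (adjusted p = 0.0229), a call lost without any 1 of the Pre-CD8 DC arrays (largest adjusted p from 0.0675 to 0.0995).

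Cell cycle genes supplied several of the leading peaks. E2f7 and E2f8 encode the atypical E2F factors that repress E2F target genes late in the cell cycle, and Ccne1 encodes cyclin E1, which drives entry into S phase. E2f7 was at 9.04, 8.79 and 8.78 in Zbtb46- CDPs, 10.06, 9.66 and 9.60 in Zbtb46+ CDPs and 8.89, 8.96 and 8.85 in Pre-CD8 DCs. The outer populations were level with each other, and the Zbtb46+ arrays were 1.87-fold (adjusted p = 0.00192) and 1.83-fold higher (limma adjusted p = 0.00422). Ccne1 had 8.92, 8.93 and 8.87, then 9.88, 9.68 and 9.52, then 8.70, 8.80 and 8.70, a difference of 0.79 (SE 0.094, adjusted p = 0.000829) from the nearer population. E2f8 had 10.69, 10.66 and 10.52, then 11.34, 11.26 and 11.07, then 10.58, 10.69 and 10.46, and differed by 0.60 (SE 0.097, adjusted p = 0.00384). These 3 genes kept their call in all 9 omissions of an array. Esco2, which acetylates cohesin during S phase, was at 8.90 ± 0.04, 9.77 ± 0.05 and 9.26 ± 0.11, and Rrm2, the small subunit of ribonucleotide reductase, at 10.44 ± 0.16, 10.82 ± 0.06 and 10.17 ± 0.06. The call of Rrm2 was lost without Zbtb46- replicate 2 or 3 or Zbtb46+ replicate 3 (largest adjusted p from 0.0627 to 0.0815).

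Among 24 measured regulators of cell cycle entry and exit, 5 were called higher and 0 lower against the average, beside 1.36% and 6.26% of all genes. Their median was 0.22, and 3 were peaks against both populations, beside 0.171% of all genes. The other 2 called members were cyclins, Ccne2 (8.85, 9.18 and 8.32 as means) and Ccnd2. With the block 9 members were called higher, and after quantile normalization 11. The mean of the 24 genes was 9.848, 9.635 and 9.653 on the Zbtb46+ arrays. Zbtb46- replicate 1, at 9.661, lay above Zbtb46+ replicates 2 and 3, and the remaining arrays were at 9.42 to 9.47. Of 36 genes of mitosis and cytokinesis, 26 were peaks by their means beside 8511 of 19938 genes in the whole table, 5 were called higher against the average and 0 lower, and the median was 0.19. None was called by limma against both populations as deposited (13 were higher and 1 lower than the average at an unadjusted p under 0.05), 3 were after quantile normalization, 6 without Zbtb46+ replicate 1, and 14 after quantile normalization without both replicate 1 arrays. The mean of these 36 genes was 10.14 on Zbtb46+ replicate 1 and 10.46 and 10.53 on replicates 2 and 3, against 10.06 to 10.20 in Zbtb46- CDPs and 10.18 to 10.36 in Pre-CD8 DCs. Aurkb, a kinase of chromosome segregation, was at 11.43, 11.31 and 11.38, then 11.86, 11.75 and 11.70, then 11.51, 11.46 and 11.58, above all other arrays, but it passed only against the Zbtb46- CDPs (adjusted p = 0.00672, and 0.0785 against Pre-CD8 DCs). Mki67, the proliferation marker, was 0.63 above the Zbtb46- CDPs (adjusted p = 0.000686) and level with the Pre-CD8 DCs within the spread (0.11, adjusted p = 0.468). Genes of DNA replication and nucleotide supply were mostly stepwise: 28 of 33 were monotone, beside 6152 of 19938 genes in the whole table. Of the 33, 6 were called higher and 0 lower against the average, and Rrm2 was the 1 peak called against both populations.

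Replication-dependent histone genes, which are transcribed in S phase, leaned the same way. Of 19 measured, 16 were peaks by their means beside 8511 of 19938 genes, 8 were called higher and 2 lower against the average, and the median was 0.39. The mean of the 19 genes was 10.44 on Zbtb46+ replicate 2, below 10.482 and 10.495 on Pre-CD8 DC replicates 1 and 3, so the groups overlapped. Zbtb46+ replicates 1 and 3, at 10.725 and 10.537, lay above all arrays of the other populations. H2bc9 was the 1 peak called against both populations, at 10.86 ± 0.04, 11.24 ± 0.04 and 10.84 ± 0.18, and its call was lost in 8 of the 9 omissions, all but that of Zbtb46+ replicate 1. After quantile normalization 6 histone genes were called peaks, with the block 5, and without both replicate 1 arrays 2. With median scaling the count was 0. It was also 0 without Zbtb46- replicate 1 or 3, Zbtb46+ replicate 2 or 3, or Pre-CD8 DC replicate 1 or 3. Histone genes share long near-identical stretches, so a probe set can read several of them and each value is uncertain. The 2 called lower, H2bc4 and H1f2, are known to be made as polyadenylated RNAs as well. H2bc4 was the largest dip of the whole table, with signals of 9.80, 9.37 and 9.83 in Zbtb46- CDPs, 7.91, 6.69 and 7.12 in Zbtb46+ CDPs and 9.55, 9.79 and 9.57 in Pre-CD8 DCs. The outer populations were level and the Zbtb46+ arrays stood apart from them, 5.37-fold (log2 difference -2.43, SE 0.269, limma adjusted p = 0.000557) and 5.27-fold lower (adjusted p = 0.00106), in every omission of an array. H1f2 was at 10.03, 9.74 and 10.72 as means and was called against the average with an adjusted p of 0.0039.

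The remaining leading peaks had varied roles. Fkbp1b, an immunophilin that binds ryanodine receptors, was at 8.51, 8.49 and 8.57, then 9.63, 9.62 and 9.52, then 8.66, 9.03 and 8.77. Zdhhc15, a protein palmitoyltransferase, was at 8.45, 7.90 and 7.98, then 8.83, 8.86 and 8.96, then 8.01, 7.67 and 8.0. In both genes the 3 Zbtb46+ arrays lay within 0.13 of each other and above the rest, 0.77 above the nearer population (limma adjusted p = 0.00203 for Fkbp1b and 0.00874 for Zdhhc15). Pik3r6, a regulatory subunit of phosphoinositide 3-kinase gamma, was 0.50 above the nearer population, and Fut7, the fucosyltransferase that builds selectin ligands, was 0.55 above it. Smim5, a small membrane protein gene expressed in plasmacytoid DCs, had a mean of 8.11 ± 0.16 against 7.04 ± 0.21 and 7.50 ± 0.14. The plasmacytoid DC list did not follow it: of 22 measured genes, 2 were called higher and 3 lower against the average, with a median of -0.11. Its members Bst2 (11.45, 11.04 and 11.29 as means) and Lifr were dips called against the average alone. The orphan receptor gene Gpr160 had 8.94 ± 0.11 against 8.44 ± 0.22 and 7.88 ± 0.11. Gal, which encodes the neuropeptide galanin, was at 6.48 ± 0.06 against 5.63 ± 0.24 and 5.87 ± 0.06, all below the table median. The calls of Fut7, Gal, Gpr160 and Smim5 were lost in 2, 2, 3 and 3 omissions of an array.

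**Figure D3:**
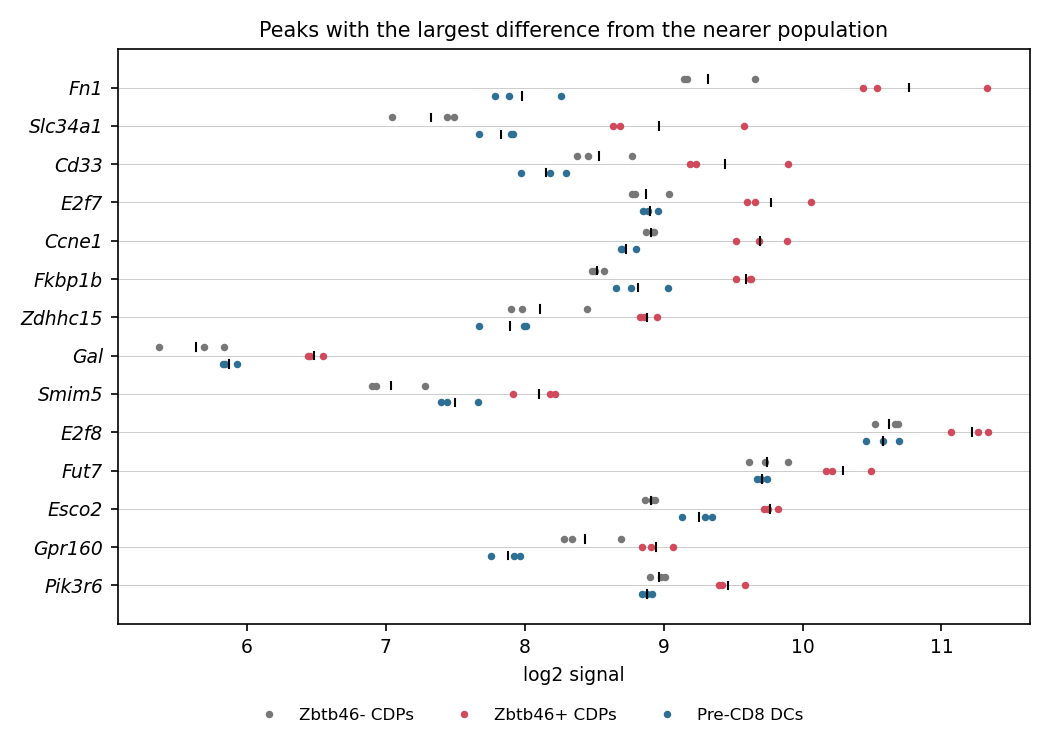
Log2 signal on each of the 9 arrays for the 14 peaks farthest from the nearer population, with a black bar at each group mean (grey, Zbtb46- CDPs; red, Zbtb46+ CDPs; blue, Pre-CD8 DCs; n = 3 each). In each gene the 3 red points lie to the right of all others, and for Fn1, Slc34a1 and Cd33 replicate 1 is the rightmost point.

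Cd7, a surface receptor of lymphoid cells that is also found on DC precursors, was the peak by means with a large difference that missed the strict call. Its signals were 9.11, 7.62 and 7.89 in Zbtb46- CDPs, 11.47, 10.98 and 11.04 in Zbtb46+ CDPs and 9.97, 10.20 and 9.84 in Pre-CD8 DCs. The groups did not overlap, and the difference from the average was 2.06 (SE 0.290, limma adjusted p = 0.00514), but the difference of 1.16 from the Pre-CD8 DCs had an adjusted p of 0.0802. It was called against both populations after quantile normalization, without the replicate 1 arrays and with the block. Thy1, another surface protein of lymphoid cells and progenitors, missed with 0.0551 against the Pre-CD8 DCs and was called after quantile normalization and without the replicate 1 arrays, but not with the block. In all, 47 peaks and 158 dips were called under quantile normalization, without the replicate 1 arrays and under both together, of which 23 peaks and 15 dips were not called in the values as deposited. Of 27 measured genes of T, NK and innate lymphoid cells 3 were called higher and 0 lower against the average, and the defining genes Cd3e, Ncr1 and Gata3 were at 7.05, 5.38 and 5.61 in the Zbtb46+ CDPs, near or below the table median. Klf4, a myeloid transcription factor (8.56, 9.91 and 9.72 as means), and L1cam, an adhesion molecule (7.36, 10.36 and 10.29), were peaks by means that were called against the Zbtb46- CDPs (limma adjusted p = 0.000259 and 2.38e-05) and not against the Pre-CD8 DCs (0.467 and 0.851). Without the replicate 1 arrays L1cam had a difference of -0.05 from the Pre-CD8 DCs and was no longer a peak.

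Sequences next to the start sites of the peaks and dips were read to show which letters they share. RefSeq promoters of mouse build GRCm38.p6, running from 250 bases before to 50 after the start, were found for 15614 of the 19938 genes. Motifs were searched on both strands: an E2F-type site (TTTCCCGC, TTTCGCGC, TTTGCCGC or TTTGGCGC), the E box bound by Myc, Max and Mxd proteins (CACGTG), and, given here by name alone, an NRF1-type and an interferon regulatory factor type site. None of the other motifs contains the E box, although matches can overlap at their ends. The E2F-type site was in 2 of 28 peak promoters (7.14%), 7 of 263 dip promoters (2.66%) and 5 of 18 promoters of the cell cycle regulators (27.8%), against 3.08% of all promoters and 4.48% of those of genes above the table median signal. The E box was in 0 of 28 peak promoters, 35 of 263 dip promoters (13.3%) and 8 of 26 promoters of ribosome biogenesis genes (30.8%), against 8.38% of all promoters and 10.4% of those of the brighter genes. The NRF1-type site was in 3.04% of dip promoters against 1.45% of all and 2.24% of the brighter genes. The interferon regulatory factor type was in 4 peak promoters (14.3%) and 5.7% of dip promoters against 3.32% of all and 2.94% of the brighter genes. These shares are descriptions, and a match is not a shown binding site. Stretches are printed for E2f7, the leading peak with an E2F-type match, and for Mxd4, Pus3 and Cdk7, the dips farthest from the nearer population with an E box before the start, with the match in capitals. Pus3 and Cdk7 were chosen by this match after their values were seen. In E2f7 the capitals are the reverse complement of TTTCCCGC, 198 bases before the start on the plus strand at chr10:110745221-110745268.
E2f7: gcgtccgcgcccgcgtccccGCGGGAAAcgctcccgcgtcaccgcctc
Mxd4: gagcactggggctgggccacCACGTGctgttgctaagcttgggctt
Pus3: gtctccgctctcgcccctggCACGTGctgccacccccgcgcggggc
Cdk7: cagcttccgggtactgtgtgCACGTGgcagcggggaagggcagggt
The E box lay 219 bases before the start in Mxd4 (minus strand, chr5:34187904-34187949), 132 in Pus3 (plus strand, chr9:35558408-35558453) and 100 in Cdk7 (minus strand, chr13:100731017-100731062). Pus3, a transfer RNA pseudouridine synthase, was at 8.29 ± 0.03, 7.51 ± 0.18 and 8.34 ± 0.10, and Cdk7, the kinase of transcription factor TFIIH, at 9.47 ± 0.07, 8.57 ± 0.32 and 9.23 ± 0.11.

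Genes of ribosome biogenesis formed the clearest group of dips. All 31 listed genes were measured, 29 were dips by their means beside 5275 of 19938 genes, 25 were called lower and 0 higher against the average, and the median difference was -0.64 beside 0.03 over all genes. The mean of the 31 genes was 9.93 to 10.09 on the Zbtb46- arrays, 9.0 to 9.16 on the Zbtb46+ arrays and 9.36 to 9.43 on the Pre-CD8 DC arrays, so the groups did not overlap. Against both populations 7 were called, Pno1, Nop14, Gnl3, Polr1c, Wdr43, Pes1 and Fbl. Pno1, which assembles the small ribosomal subunit, was at 8.69, 8.36 and 8.71, then 7.30, 7.41 and 7.72, then 8.20, 8.37 and 8.18. Its Zbtb46+ arrays lay below the 6 others, 0.77 under the Pre-CD8 DCs (SE 0.133, limma adjusted p = 0.00979), a call kept in every omission. Gnl3, the nucleolar GTPase nucleostemin, was at 9.68 ± 0.25, 8.07 ± 0.22 and 8.67 ± 0.06, and Polr1c, a subunit shared by RNA polymerases I and III, at 9.55 ± 0.18, 8.84 ± 0.15 and 9.40 ± 0.12. After quantile normalization 22 genes were still called lower and the median was -0.51, but 3 were dips against both populations, without Gnl3. Those dips numbered 12 with the block, 14 without Zbtb46+ replicate 1, 2 without Zbtb46+ replicate 2, and 2, 4 and 3 without Pre-CD8 DC replicates 1, 2 and 3.

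Myc, a transcription factor known to drive ribosome production and growth, was a dip. Its signals were 11.53, 11.46 and 11.54 in Zbtb46- CDPs, 10.36, 9.72 and 9.65 in Zbtb46+ CDPs and 10.76, 10.62 and 10.68 in Pre-CD8 DCs. The Zbtb46+ arrays were the 3 lowest, 3.03-fold under the Zbtb46- CDPs (adjusted p = 0.000388) and 1.72-fold under the Pre-CD8 DCs (limma adjusted p = 0.0243). The call against the Pre-CD8 DCs was lost without Zbtb46+ replicate 2 or 3 or any 1 Pre-CD8 DC array, where the difference lay between -0.65 and -0.81. Mxd4, a partner of Max that opposes Myc, was also a dip, with 8.48, 8.30 and 8.48, then 7.64, 7.41 and 7.20, then 8.29, 8.23 and 8.30. It was 0.86 under the nearer population (SE 0.112, adjusted p = 0.00241), in every omission. Gtpbp4, a nucleolar GTPase of the large ribosomal subunit, was 0.81 under it (adjusted p = 0.00885). A link of Myc or Mxd4 to the ribosome biogenesis dips was not tested.

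**Figure D4:**
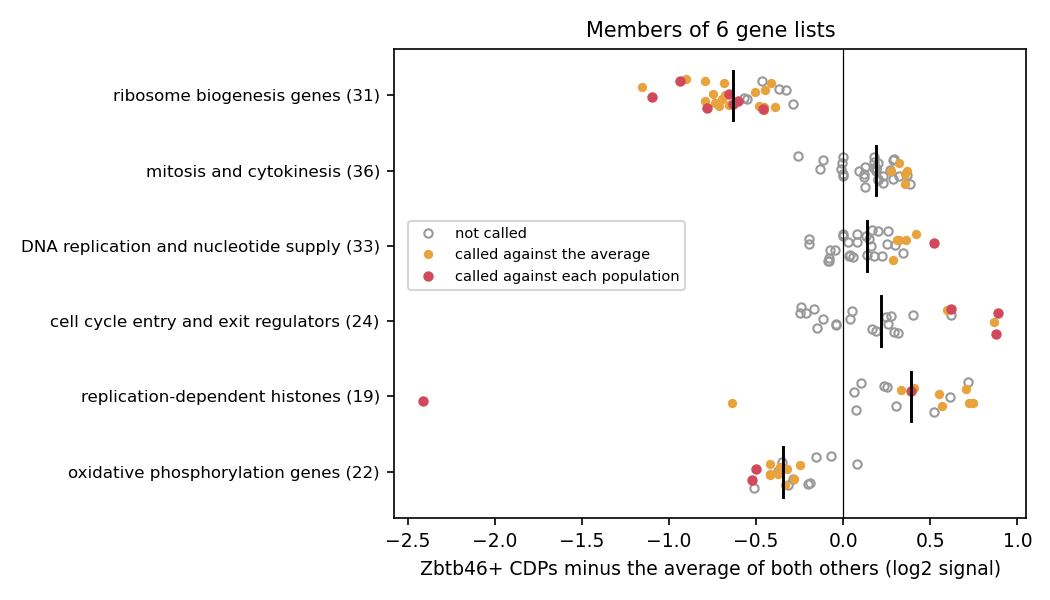
Difference of the Zbtb46+ CDPs from the average of both other populations (log2 signal) for each measured member of 6 gene lists, with a black bar at the list's median; numbers in brackets are measured members. Ribosome biogenesis genes lie to the left of 0 with a median of -0.64 and oxidative phosphorylation genes with -0.34, while the cell cycle and histone lists have medians from 0.13 to 0.39 and H2bc4 stands alone at -2.41.

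Mitochondrial genes were also low. Of 22 measured genes of oxidative phosphorylation, 19 were dips by their means, 12 were called lower and 0 higher against the average, and the median was -0.34. Sdhb and Sdhd, subunits of succinate dehydrogenase, were the 2 called against both populations. Sdhb was at 11.38, 11.08 and 11.14, then 10.54, 10.67 and 10.66, then 11.05, 11.17 and 11.04, without overlap, and 0.47 under the Pre-CD8 DCs (SE 0.093, limma adjusted p = 0.0188). Both calls were lost without any 1 Pre-CD8 DC array. After quantile normalization 3 of the 22 were called lower against the average, with a median of -0.23, and Sdhb was the 1 dip; with the block 4 were dips. By symbol, and chosen after their values were seen, 77 genes of mitochondrial ribosomal proteins were measured, of which 72 were dips by their means, 29 were called lower and 0 higher against the average, and 11 were called against both populations, among them Mrpl50, Mrpl32 and Mrpl9. Their median was -0.35, and -0.24 after quantile normalization, when 3 were dips against both. Of 59 genes of cytosolic ribosomal proteins, 20 were called lower and 0 higher with a median of -0.25, and 5 were dips against both, 1 after quantile normalization and 10 with the block. These protein families are bright on the arrays, and their share in the shift of bright genes described above was not tested.

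Among the largest single dips were receptors for extracellular ATP. P2rx7, the pore-forming purinergic receptor of myeloid cells, was at 9.91, 9.95 and 9.86 in Zbtb46- CDPs, 8.31, 8.38 and 8.37 in Zbtb46+ CDPs and 9.35, 9.41 and 9.18 in Pre-CD8 DCs. The 3 groups did not overlap, and the Zbtb46+ CDPs were 2.94-fold (adjusted p = 9.02e-06) and 1.95-fold (limma adjusted p = 0.000129) lower, in every omission. P2rx4, a related ATP-gated channel, was at 9.36, 8.99 and 9.10, then 7.65, 8.18 and 8.33, then 9.05, 8.90 and 8.90, with a call against the Pre-CD8 DCs (adjusted p = 0.0143) that was lost without Pre-CD8 DC replicate 1 or 3. Ctnnd1, the p120 catenin that stabilises cadherins, was at 8.21, 8.0 and 8.02, then 7.11, 7.08 and 6.87, then 8.34, 8.0 and 8.17. It was 1.06 under the nearer population (SE 0.109, adjusted p = 0.000396), in every omission. The tetrahydrobiopterin enzyme gene Pts differed by -0.996, the tubulin gene Tubb6 by -0.88, the quinone reductase gene Nqo2 by -0.86, BC028528 by -0.84 and the amidase gene Nit2 by -0.82 from the nearer population, each in every omission. The mitochondrial protein gene Fam136a (-0.82) and the vesicle transport gene Sft2d2 (-0.81) lost their calls in 3 and 6 omissions, and Sft2d2 also without both replicate 1 arrays.

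**Figure D5:**
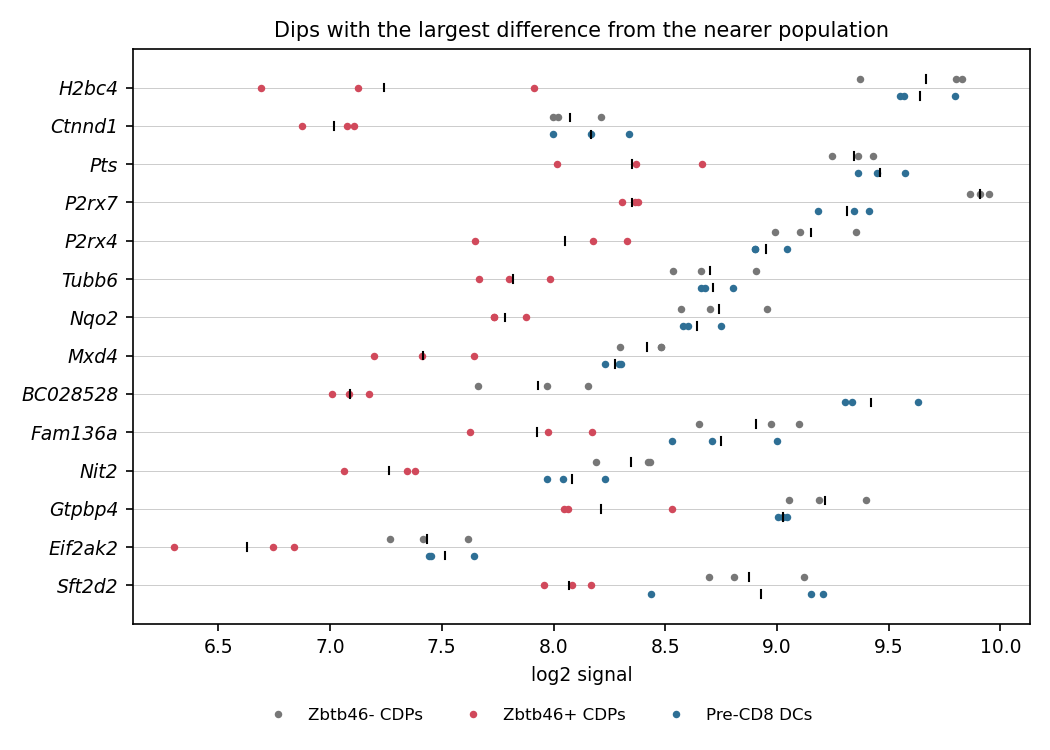
Log2 signal on each of the 9 arrays for the 14 dips farthest from the nearer population, with a black bar at each group mean (grey, Zbtb46- CDPs; red, Zbtb46+ CDPs; blue, Pre-CD8 DCs; n = 3 each). In each gene the 3 red points lie to the left of all others, and grey and blue points overlap or adjoin in most genes other than BC028528 and P2rx7.

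The viral RNA sensor genes Ifih1 and Eif2ak2 were among the dips as well. Ifih1, which encodes the sensor MDA5, was at 7.75, 7.74 and 7.74, then 6.83, 6.76 and 7.40, then 8.10, 7.96 and 8.16, below the 6 others in each Zbtb46+ array. It was 0.75 under the Zbtb46- CDPs (SE 0.153, limma adjusted p = 0.0114), and the call was kept in every omission. Eif2ak2, the RNA-activated kinase PKR, was at 7.27, 7.42 and 7.62, then 6.75, 6.84 and 6.30, then 7.44, 7.45 and 7.64, 0.81 under the nearer population (adjusted p = 0.0068). Its Zbtb46+ signals were near or below the table median of 6.82. A further sensor gene, Dhx58 (7.96, 7.51 and 8.74 as means), had overlapping arrays and was not called against the Zbtb46- CDPs (limma adjusted p = 0.131). Dhx58 was called against both populations without the replicate 1 arrays and with the block. The interferon-stimulated list did not follow as a whole: of 28 measured, 2 were called higher and 4 lower against the average, 18 were monotone and the median was -0.23. In 14 genes of MHC class I processing, 4 were called lower and 0 higher, with a median of -0.31, and the immunoproteasome subunit gene Psmb10 was the 1 dip against both populations (11.05 ± 0.08, 10.69 ± 0.09 and 11.39 ± 0.14). Its call was lost after quantile normalization and without Zbtb46- replicate 1 or 3 or Zbtb46+ replicate 2 or 3. In 17 Toll-like receptors and adaptors, 1 was called higher and 7 lower with a median of -0.16, and none against both. For these lists, the shares over all genes were 1.36% called higher, 6.26% called lower and 1.54% dips against both.

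Progenitor and surface receptor genes gave a few dips. Flt3, a receptor tyrosine kinase whose ligand supports DC development, was at 11.25, 11.19 and 11.13, then 10.97, 10.64 and 10.47, then 11.30, 11.20 and 11.36. The Zbtb46+ arrays lay below the 6 others by a mean of 0.49 from the Zbtb46- CDPs (SE 0.120, limma adjusted p = 0.0243), but the call was lost after quantile normalization and in 7 of the 9 omissions, all but those of Zbtb46+ replicate 1 and Pre-CD8 DC replicate 2. Lmo2, a transcriptional adaptor of blood progenitors, was at 9.12 ± 0.10, 8.40 ± 0.10 and 8.86 ± 0.09, and its call was lost without Zbtb46+ replicate 2 or 3 or Pre-CD8 DC replicate 1 or 2. Over all genes 1.36% were called higher and 6.26% lower against the average, and 1.54% were dips against both. Of 27 stem and progenitor genes 1 was called higher and 5 lower against the average, and Flt3, Lmo2 and Myc were the 3 dips against both. That count was 0 without Zbtb46+ replicate 2 or 3 or Pre-CD8 DC replicate 1, and 1 without Pre-CD8 DC replicate 2 or 3. Clec12a, an inhibitory lectin receptor, was at 11.15 ± 0.07, 9.93 ± 0.27 and 10.42 ± 0.07, and the adhesion molecule gene Icam2 at 9.10 ± 0.09, 8.19 ± 0.16 and 8.62 ± 0.15. Both were called narrowly against the Pre-CD8 DCs (limma adjusted p = 0.0476 and 0.0479), and both calls were lost after quantile normalization and in 7 omissions. Cblb, a ubiquitin ligase that restrains receptor signalling, differed by -0.32 and lost its call in 8 omissions. The cathepsin gene Ctso differed by -0.77, in every omission.

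Genes of DC identity were mostly stepwise rather than highest or lowest in the Zbtb46+ CDPs. Of 28 measured cDC1 genes 26 were monotone, as were all 9 MHC class II genes, beside 6152 of 19938 genes in the whole table. None of the cDC1 genes was called against both populations. Such calls were rare over all genes (0.171% peaks and 1.54% dips), so their absence says little about a list of this size. Zeb2, a repressor of the cDC1 fate, was at 10.39 ± 0.07, 8.56 ± 0.05 and 7.18 ± 0.12, and Nfil3, an early cDC1 factor, at 9.10 ± 0.32, 8.90 ± 0.19 and 7.57 ± 0.21. Irf8, the lineage regulator, had its highest mean in the Zbtb46+ CDPs, 12.97 ± 0.32 against 12.52 ± 0.15 and 12.94 ± 0.05, but was not called against the average (limma adjusted p = 0.299). That mean rested on Zbtb46+ replicate 1, at 13.33. Replicates 2 and 3, at 12.80 and 12.77, lay below all Pre-CD8 DC arrays. Without the replicate 1 arrays Irf8 had a difference of -0.16 from the Pre-CD8 DCs and was no longer a peak. Of 49 DC and haematopoietic transcription factors, 34 were monotone, 3 were called higher and 1 lower against the average, and none against both populations.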

How the data were processed

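The deposited values were RMA signal intensities per probe set from Affymetrix Expression Console, per the submitters' processing notes; versions and settings are not given in the sources used here. The values were on a linear intensity scale (7.45 to 20455.6), so log2 was taken and no other scaling was applied. Of 28853 probe sets, 21789 had 1 gene symbol, 1621 had several and 5443 were not in the probe table. For the 999 genes with several probe sets the brightest was used, leaving 19938 genes and no filter on dim genes. Array medians ran from 110.2 to 118.0 and no 2 arrays were identical. Precision is limited by having 3 arrays per group, with a median residual SD of 0.13 (log2).

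Group means were fitted to all 9 arrays with limma 3.58.1 (lmFit, eBayes) in R 4.3.3, with Benjamini-Hochberg adjustment over all genes in each contrast. Replicate numbers are those in the sample titles. Deviations of same-numbered arrays correlated by 0.51, 0.42 and 0.36 between the CDP groups, which met the rule for pairing, although Zbtb46- replicate 3 correlated by 0.38 with Zbtb46+ replicate 2 and Zbtb46- replicate 2 by 0.15 with Zbtb46+ replicate 3. The main fit held group means only and ignored this pairing. The block over the CDP groups, which uses it, was run as an alternative (178 peaks and 624 dips). Same-numbered arrays correlated by -0.01, -0.03 and 0.03 and by 0.11, 0.07 and 0.17 between Pre-CD8 DCs and the Zbtb46- and Zbtb46+ CDPs. On simulated peaks and dips (100 genes per size among 19938), 50%, 93% and 100% were recovered at log2 changes of 0.5, 1 and 2. The simulated arrays had independent noise and level outer populations, without the replicate 1 difference or the correlation between CDP arrays. These rates may therefore not hold for the real arrays.

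The members, lists and named genes were chosen with earlier results of these data known. Genes were named by rule: the 14 peaks and 14 dips farthest from the nearer population whose arrays lay beyond the 6 others (without antigen receptor segments, pseudogenes, or predicted, clone-named or small RNA genes), up to 4 called members per list and, where fewer than 2 were called, up to 2 called against the average, and a fixed set (Zbtb46, Id2, Nfil3, Zeb2, Irf8, Batf3, Flt3, Csf1r, Mki67, Mpo, Klf4, Fn1, Cd209a, Xist and Ngp). Exceptions, chosen after their values were seen, are Ccnd2, Ccne2, H1f2, H4c14, A330008L17Rik, Nin, Stxbp6, F13a1, Cd14, Uty, Kdm5d, Pus3, Cdk7, Wdr43, Pes1, Fbl, Mrpl50, Mrpl32, Mrpl9 and the marker genes.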

Additional observations from a re-analysis of the deposited data

How the results depend on the processing

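The named genes called against both populations kept their direction in each alternative run. L1cam, called against the average alone, stopped being a peak without the replicate 1 arrays, as did Irf8, which was not called. The sign for Irf1 differed between probe sets. Counts moved more. Main counts were 272 genes higher and 1249 lower against the average, 34 peaks and 308 dips. Quantile normalization gave 553 higher, 100 peaks and 192 dips. Leaving out both CDP replicate 1 arrays gave 1503 higher, 2463 lower, 678 peaks and 939 dips, and, in an alternative added after seeing the data, doing both gave 1264 higher, 547 dips and 470 peaks. The CDP replicate block gave 1023 higher, 2186 lower, 178 peaks and 624 dips, and a replicate block over all 3 groups 53 peaks, 319 dips, 343 higher and 1332 lower. A covariate for the CDP replicate 1 arrays gave 1157, 2356, 230 and 726, and array weights 1278, 2290, 464 and 894. Adjusted p under 0.01 left 67, 351, 10 and 62, and a difference of at least 1 left 23, 36, 2 and 2. Omitting single arrays gave 125 to 1267 higher, 538 to 2317 lower, 16 to 414 peaks and 108 to 762 dips. Median scaling (24 peaks, 408 dips), dropping the dimmest 30% (41 and 368) or 50% (37 and 368) of genes, the mean of probe sets (40 and 309) and an intensity trend with robust moderation (42 and 223) stayed within 1.5 times of the main counts. The causes were not tested. With each probe set fitted on its own, also added after seeing the data, another probe set of Irf1 differed by 0.06 from the average where the brightest, which was called, differed by -0.32. Signals near or below the table median of 6.82 were not shown to lie above background, so differences of dim genes may understate the change.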

Other observations

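Further protein families of growth, grouped by symbol after their values were seen, were also low in the Zbtb46+ CDPs. Over all genes, 5275 of 19938 were dips by their means, 6.26% were called lower against the average and 1.54% were dips against both. Dips were more frequent among bright genes, and the part of this in these families was not tested. Of 24 genes of the mitochondrial import translocases, 20 were dips by their means, 8 were called lower and 0 higher against the average (limma), and Timm10, Timm17a, Tomm5 and Tomm7 were called against both populations, with a median over the family of -0.39 (-0.29 after quantile normalization). Of 19 genes of the 20S proteasome, 5 were called lower and 0 higher with a median of -0.38, and 3 were dips against both populations. After quantile normalization 2 were called lower and 0 were such dips. Of 11 subunits of the initiation factor eIF3, 6 were called lower and 0 higher with a median of -0.35, and after quantile normalization 3 were lower and the dips against both fell in number from 3 to 1. The RNA polymerase III subunits Polr3d, Polr3e and Polr3k were called against both populations, of 8 measured, and 2 of these dips were called after quantile normalization.

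Some surface and secreted factors outside these families were called against the average without a call against both populations. Il15, the cytokine that supports NK cells, was at 7.08 ± 0.27 in Zbtb46- CDPs, 5.74 ± 0.44 in Zbtb46+ CDPs and 6.34 ± 0.04 in Pre-CD8 DCs. Lifr, the receptor of leukaemia inhibitory factor, was at 6.69 ± 0.32, 5.92 ± 0.23 and 6.47 ± 0.02. Il1r2, the decoy receptor of interleukin 1, was at 6.02 ± 0.28, 7.30 ± 0.49 and 6.93 ± 0.07, with the highest value, 7.83, on Zbtb46+ replicate 1.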
